A study of Mus musculus with 32 samples.

Results

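Tumours contain fibroblasts, pericytes and smooth muscle cells beside the cancer cells, and 10 genes used to mark these stromal cells were followed here. They were chosen by name: Pdgfra, Pdgfrb, Fap, Pdpn, Thy1, Acta2, Tagln, Pi16, Clec3b and Cxcl12. All 10 were listed in each of the 4 deposited tables, which hold 22609 genes in culture and in Rag1-/- hosts and 25277 genes at day 4 and at day 6. The RNA came from the mouse mammary carcinoma line E0771, which derives from C57BL/6 mice, and from its tumours. The question, going by the series' title, was what DDR1, a receptor tyrosine kinase that binds collagen, does in the growth of mammary tumours.

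The groups were as follows. In culture, 2 libraries of E0771 DDR1 KO derivatives, titled 3-6 and 3-7 and numbered knockout 1 and 2 here, stood against 3 of E0771 DDR1 WT cells. Those 3 were titled E0771-P, EV and Ctrl and are numbered wild-type 1, 2 and 3. In Rag1-/- mice, which lack mature T and B cells, 5 DDR1 KO tumours stood against 5 DDR1 WT tumours. In C57BL/6 mice at day 4, 5 DDR1 KO tumours stood against 4 DDR1 WT tumours, and the design text describes these as moved from Rag1-/- to C57BL/6 hosts. In C57BL/6 mice at day 6, 4 tumours given an hDDR1 ECD antibody (hDDR1 being human DDR1) stood against 4 given IgG. No DDR1 genotype is given for the day 6 tumours. The labels give no age of the mice and do not say whether the KO derivatives are single clones. The knockout is a property of the injected cells, so host cells in a knockout tumour still carry Ddr1. Nothing in the labels ties a library to its own culture or animal. The p-values therefore reflect the spread of these samples alone, which may be technical.

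The culture libraries held 29270919 to 37425032 reads each and the Rag1-/- tumours 18967300 to 25516204. The day 4 tumours held 20148955 to 28600639 reads and the day 6 tumours 20220028 to 39732635. Ddr1 itself stood at 18.98 to 26.7 RPM, reads scaled to the library's total, in the knockout culture libraries, against 171 to 213 RPM in the wild-type ones. It stood at 33.3 to 42.3 RPM in knockout and 174 to 189 RPM in wild-type tumours of Rag1-/- hosts, and at 27.9 to 49.7 RPM in knockout and 132 to 175 RPM in wild-type tumours at day 4. At day 6 it was low in both groups, at 18.5 to 28.5 RPM with the antibody and 15.9 to 22.1 RPM with IgG. Values below are normalized read counts unless RPM is named, and each log2 difference is one of log2(normalized count + 1). Tests are limma fits over all genes of a table with a mean of 10 or more, with Benjamini-Hochberg adjustment and a threshold of 0.05.

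Fibroblasts lay down and remodel the extracellular matrix, and in tumours they take several states. Contractile fibroblasts, or myofibroblasts, carry actin stress fibres and express Acta2, the alpha smooth muscle actin, and Tagln, the actin-binding protein SM22. Inflammatory fibroblasts secrete cytokines and chemokines, among them Cxcl12, which binds the receptors CXCR4 and ACKR3. Fibroblasts with Pi16 (peptidase inhibitor 16) and Clec3b (tetranectin) have been described in many healthy mouse tissues, often around vessels, and are called universal. Pdgfra and Pdgfrb encode the receptors of platelet-derived growth factors, the first typical of fibroblasts and the second of pericytes and fibroblasts. Fap is a membrane serine protease of activated stroma, Pdpn a mucin-like glycoprotein also found on lymphatic endothelium and keratinocytes, and Thy1 a surface glycoprotein that mouse T cells also carry.

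On GRCm38, with GENCODE's gene boundaries, Pdgfra lies at chr5:75152292-75198215 on the plus strand. Fap lies at chr2:62500943-62574075 (minus), Pdpn at chr4:143267431-143299564 (minus) and Thy1 at chr9:44043384-44048579 (plus). The contractile genes lie at chr19:34241090-34255590 (Acta2, minus) and chr9:45929619-45936058 (Tagln, minus). Pi16 lies at chr17:29317680-29330593 (plus), Clec3b at chr9:123150946-123157432 (plus) and Cxcl12 at chr6:117168535-117181367 (plus).

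The start of Acta2 is shown because it is a well studied target of serum response factor, which binds CArG boxes. The start of Cxcl12 is shown beside it as that of the chemokine member. Both are the 250 bases before the start site in RefSeq's promoter table for GRCm38.p6, written 5′ to 3′ on the gene's strand. The Acta2 stretch is chr19:34255374-34255623 on the minus strand and the Cxcl12 stretch is chr6:117168285-117168534 on the plus strand. Capitals in Acta2 mark CArG boxes with 1 other base in their core, and capitals in Cxcl12 mark GGGCGG on either strand, the last 2 of which overlap.
Acta2: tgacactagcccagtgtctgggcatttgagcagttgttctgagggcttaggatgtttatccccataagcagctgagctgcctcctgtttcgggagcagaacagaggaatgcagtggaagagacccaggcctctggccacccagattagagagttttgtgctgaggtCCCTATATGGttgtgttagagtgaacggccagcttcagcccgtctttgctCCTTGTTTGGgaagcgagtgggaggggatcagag
Cxcl12: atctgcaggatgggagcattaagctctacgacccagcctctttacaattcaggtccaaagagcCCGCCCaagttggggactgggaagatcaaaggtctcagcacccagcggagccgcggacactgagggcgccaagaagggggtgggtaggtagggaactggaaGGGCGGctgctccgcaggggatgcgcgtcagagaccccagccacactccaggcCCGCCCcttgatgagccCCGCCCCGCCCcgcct

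The 2 stretches of Acta2 span positions -84 to -75 and -34 to -25, counted from the RefSeq start site. A CArG box without any other base was not in this window. The form with up to 1 other base, chosen after the sequence was seen, is in 9.99% of the 32817 RefSeq promoter windows of 300 bases, and the strict form is in 1.63%. GGGCGG is in 35.6% of these windows, and Cxcl12 has it at 5 places. Windows were in the table for 5 of the 10 members, also Pdgfra, Pdpn and Pi16. Those 3 had no CArG box in either form, and of the 5 genes only Cxcl12 and Pdpn held GGGCGG. Also searched on both strands were TATAAA (13.6% of windows) and, in 7.81% of windows, TGANTCA, and neither was in any of the 5.

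**Figure D1:**
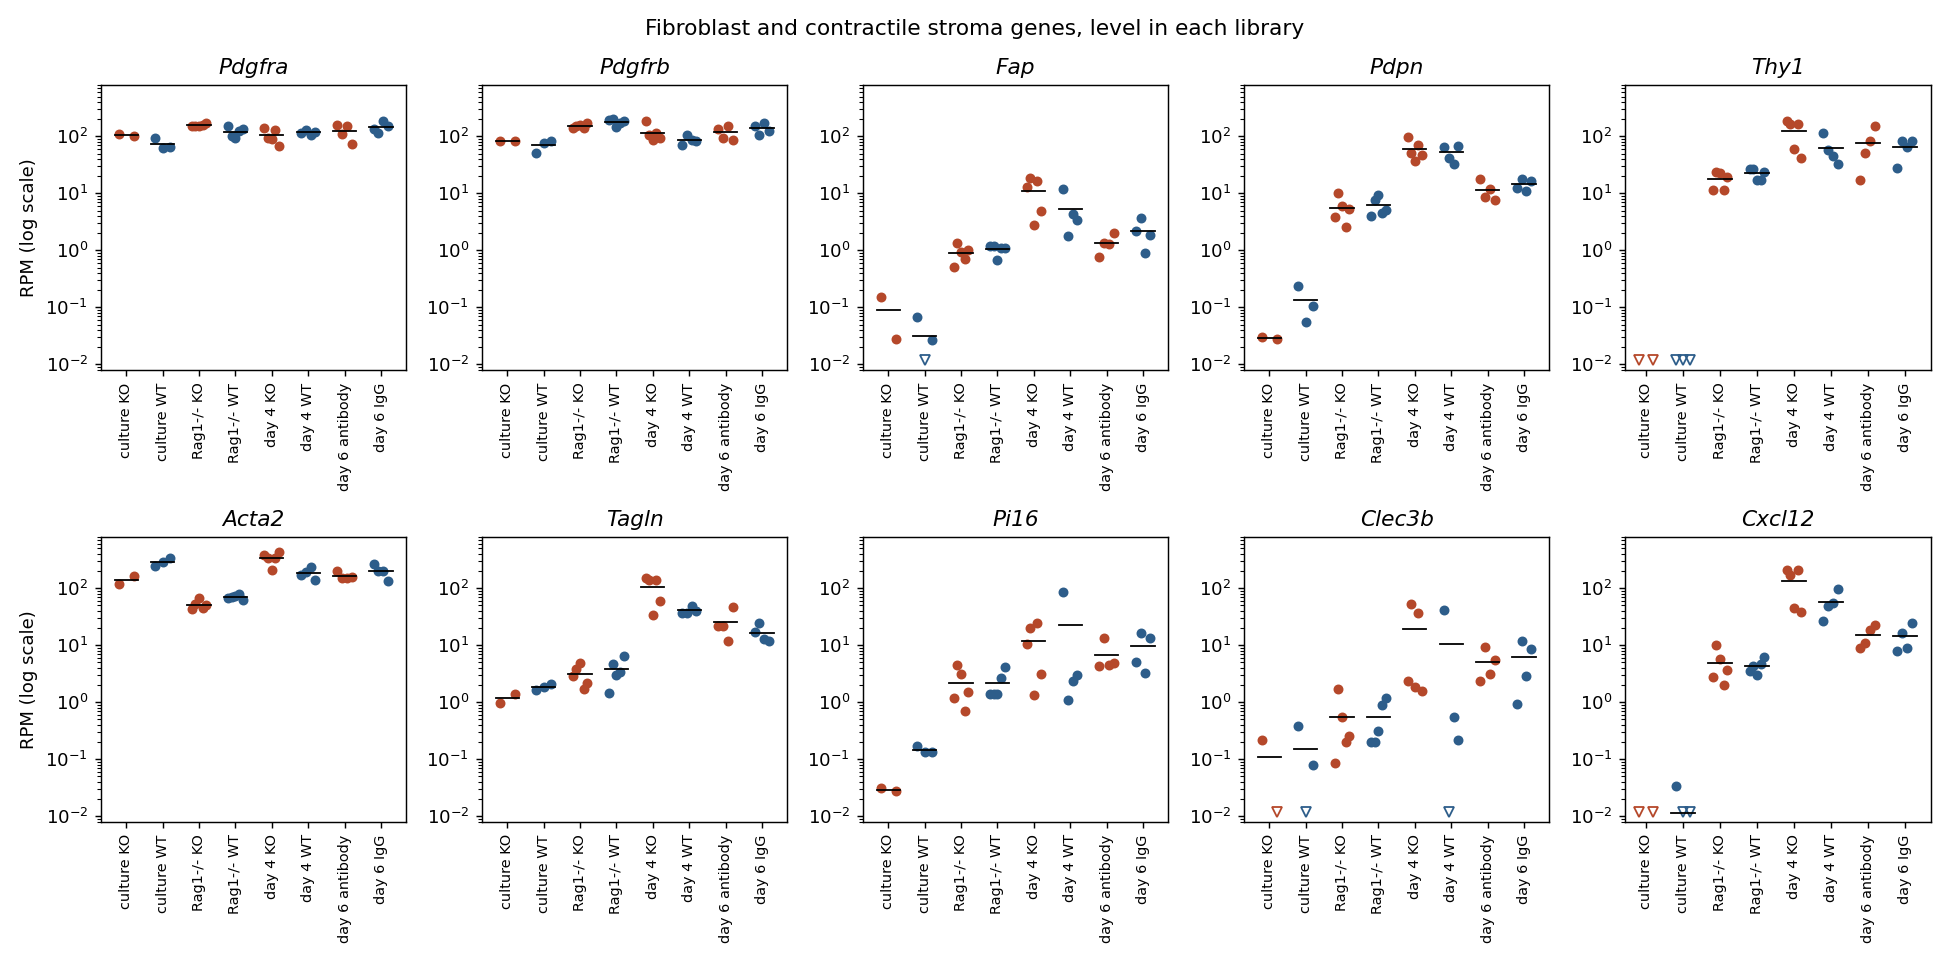
Level of each of the 10 genes in every library, in RPM on a log axis, by group, with a line at each group's mean. Red points are knockout or antibody libraries, blue points are wild-type or IgG libraries, and open triangles at the foot of a panel are libraries with 0 reads. Pdgfra, Pdgfrb and Acta2 are high in culture and in tumours, and the other 7 are low or at 0 in culture.

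The cultured cells themselves expressed 3 of the genes at levels like those of tumours. Pdgfra averaged 106 ± 4.67 RPM in knockout and 74.0 ± 17.8 RPM in wild-type cells (SD, n = 2 and 3). Pdgfrb averaged 81.8 ± 0.119 RPM in knockout and 70.1 ± 16.9 RPM in wild-type cells (SD, n = 2 and 3). Acta2 averaged 141 ± 34.1 RPM in knockout and 293 ± 48.7 RPM in wild-type cells (SD, n = 2 and 3), above its mean in both tumour groups of Rag1-/- hosts. In a tumour, RNA of these 3 genes can therefore come from the E0771 cells as well as from host stroma, and the 2 sources cannot be told apart here.

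The other members had little or no RNA in culture. Tagln averaged 1.19 ± 0.301 RPM in knockout and 1.85 ± 0.209 RPM in wild-type cells (SD, n = 2 and 3). Thy1 had 0 reads in all 5 culture libraries, which allows up to 0.102 RPM in the shallowest of them, taking 3 reads as the limit and covering counting error only. Cxcl12 had 1 read in all 5 libraries together, in wild-type 1. Fap had 5 and 1 reads in the knockout libraries, against 2, 0 and 1 in the wild-type ones. Pi16 had 1 read in each knockout library and 5 in each wild-type one, Pdpn had 1 and 1 against 7, 2 and 4, and Clec3b had 7 and 0 against 11, 0 and 3. None of these 6 genes passed the filter on low values in culture, so the 4 that did are no sample of all 10.

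Tumours differed in how much of the other members they held, and the order was much the same from gene to gene. Fap, Pdpn, Thy1, Tagln and Cxcl12 had their highest group means at day 4 in knockout tumours and their lowest tumour means in Rag1-/- hosts. Cxcl12 averaged 133 ± 85.5 RPM in knockout and 56.95 ± 29.9 RPM in wild-type tumours at day 4 (SD, n = 5 and 4). It averaged 15.3 ± 6.57 RPM with antibody and 14.5 ± 7.81 RPM with IgG at day 6 (SD, n = 4 each), and 4.82 ± 3.23 RPM in knockout and 4.32 ± 1.22 RPM in wild-type tumours of Rag1-/- hosts (SD, n = 5 each). The lowest day 4 wild-type library for Cxcl12, at 26.5 RPM, lay above the highest day 6 library, at 24.6 RPM. The tables were normalized separately and their tumours differ in host, time and transplantation together, so these steps are a description.

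Tagln averaged 104 ± 53.7 RPM in knockout and 40.6 ± 5.48 RPM in wild-type tumours at day 4 (SD, n = 5 and 4). It averaged 25.4 ± 14.9 RPM with antibody and 16.5 ± 5.63 RPM with IgG at day 6 (SD, n = 4 each). In Rag1-/- hosts it averaged 3.09 ± 1.28 RPM in knockout and 3.78 ± 1.87 RPM in wild-type tumours (SD, n = 5 each). Rag1-/- tumours and the 2 later sets did not overlap in Tagln, and day 4 and day 6 tumours did. Pdpn followed the same order, with 60.6 ± 24.6 RPM in knockout and 52.2 ± 17.9 RPM in wild-type tumours at day 4 (SD, n = 5 and 4). Its day 6 means were 11.6 ± 4.78 RPM with antibody and 14.4 ± 3.24 RPM with IgG (SD, n = 4 each), and its Rag1-/- means were 5.61 ± 2.90 RPM in knockout and 6.20 ± 2.27 RPM in wild-type tumours (SD, n = 5 each). No day 4 library of Pdpn overlapped with any other set, while neighbours within a set did overlap.

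The receptors did not follow this order. Mean Pdgfra stood between 104.6 and 158 RPM over the 6 tumour groups and mean Pdgfrb between 86.2 and 179.7 RPM, and each group overlapped with the next in order for both genes. Per kilobase of annotated exons, Acta2 was the first of the 10 genes in 6 of the 8 groups, and Pdgfrb was first in both groups of Rag1-/- hosts. In day 4 knockout tumours Acta2 stood at 155 ± 38.3 RPM per kb and Tagln came next at 52.4 ± 27.002 RPM per kb (SD, n = 5). In day 4 wild-type tumours Acta2 stood at 83.4 ± 17.8 RPM per kb and Tagln, after 2 other members, at 20.4 ± 2.76 RPM per kb (SD, n = 4).

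The question of the culture and the Rag1-/- comparisons was which of these genes differ with the Ddr1 genotype of the tumour cells. In culture none of the 4 members tested passed, where 39 of 11911 genes (0.327%) did. Of the 4, 2 had an unadjusted p under 0.05, as 18.8% of genes did. edgeR passed none of the 4 and 0.21% of genes, DESeq2 passed 1 of them and 8.86% of genes, and the authors' deposited table has 3.67% of its genes under 0.05. All 4 had groups that did not overlap, which 36.2% of the genes tested showed in this small table. The median log2 difference of the 4 was -0.17, against 0.00 over all genes tested.

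Acta2 stood at 4014 and 5792 in the knockout cells, against 8475, 9845 and 11604 in the wild-type cells. Both knockout libraries lay below all 3 wild-type ones. The log2 difference was -1.04 (SE 0.19, 95% interval -1.48 to -0.59, limma adjusted p = 0.0642, n = 2 and 3). DESeq2 on the recovered reads gave an adjusted p of 2.17e-05, and the authors' deposited table gives 2.97e-09. Without wild-type library 1, limma's adjusted p was 0.0115, the lowest of the 5 fits with 1 library left out. Over these 5 fits the log2 difference ran from -1.30 to -0.77. The number of genes called varied widely between them, as given at the end. Tagln stood at 33.6 and 49.2 in knockout and at 56.2, 63.0 and 69.4 in wild-type cells, a log2 difference of -0.61 (SE 0.32, limma adjusted p = 0.357, n = 2 and 3).

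Pdgfra stood at 3746 and 3595 in knockout cells, against 3244, 2149.8 and 2176 in wild-type cells. The parental library, wild-type 1, was the highest of the 3. Knockout minus wild type was 0.57 (SE 0.19, limma adjusted p = 0.175, n = 2 and 3), and without wild-type library 1 it was 0.76 with limma's adjusted p = 0.00632. This was the lowest adjusted p of the 5 fits with 1 library left out, over which the difference ran from 0.47 to 0.76. The authors' deposited table gives an adjusted p of 0.0122. Pdgfrb stood at 2807 and 2862 in knockout cells, against 1741, 2635 and 2775 in wild-type cells, a log2 difference of 0.28 (SE 0.20, limma adjusted p = 0.503, n = 2 and 3).

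**Figure D2:**
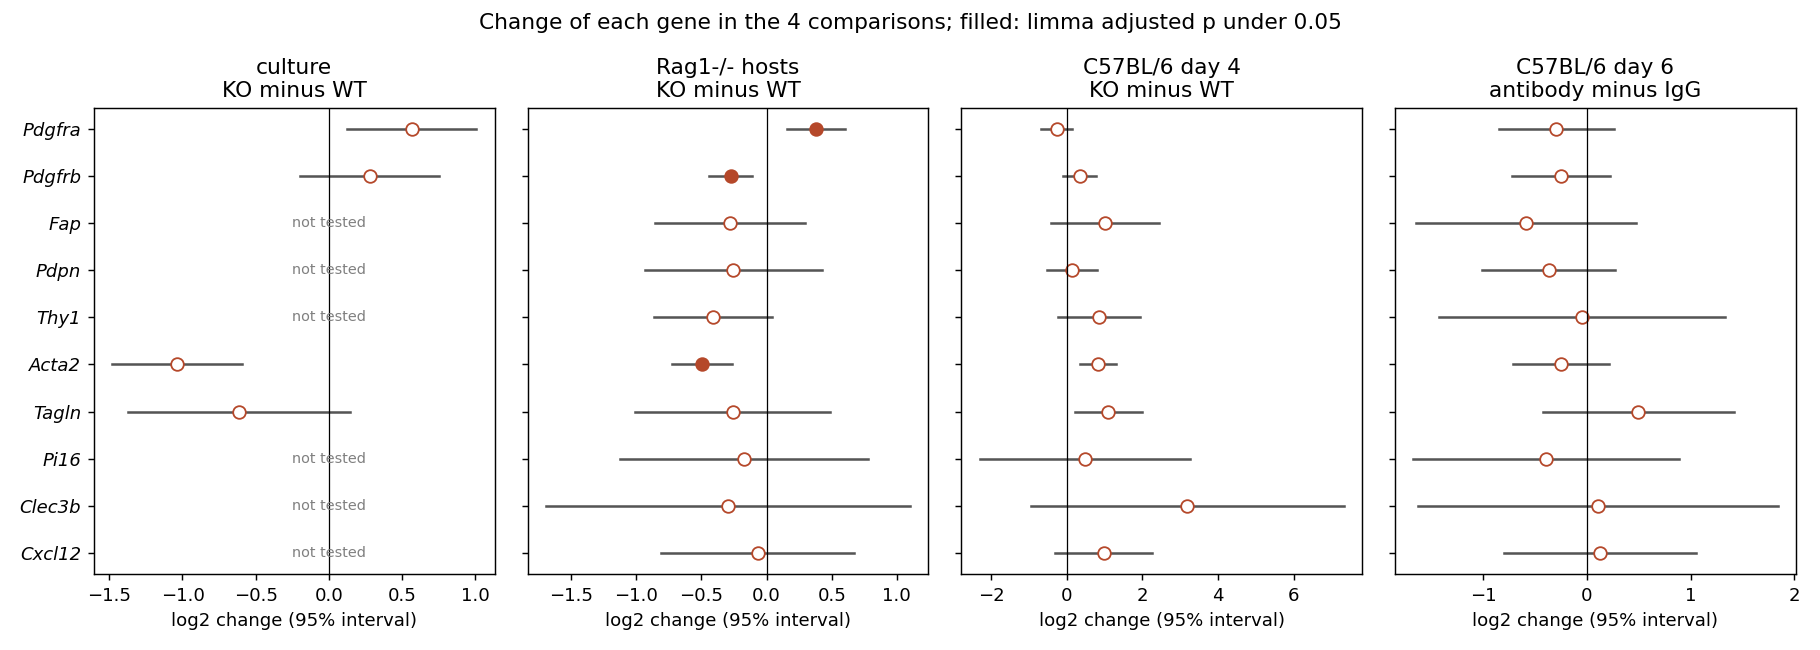
The log2 difference of each gene in the 4 comparisons, as knockout minus wild type or antibody minus IgG, with its 95% interval from limma. Filled points passed the adjusted p threshold, which happened for Pdgfra, Pdgfrb and Acta2 in Rag1-/- hosts, and the x axes differ between panels. At day 4, 9 of the 10 points lie above 0.

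In Rag1-/- hosts 3 of the 10 members passed, where 22.7% of 12795 genes tested did, a share in the same range. Pdgfra rose in knockout tumours (11.3% of genes rose) and Pdgfrb and Acta2 fell (11.4% of genes fell). The estimate was below 0 for 9 of the 10 members, with a median log2 difference of -0.27 against 0.00 over all genes. No member had groups that did not overlap, where 15% of genes did. In bulk tumour RNA, fewer cells of a type and less RNA per cell cannot be told apart, here or below.

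Pdgfra stood at 3257, 3127, 3178, 3350.4 and 3654 in knockout tumours, against 3233, 2147, 2038, 2689 and 2796 in wild-type tumours. Wild-type tumour 1 was as high as the knockout tumours and the other 4 were lower than all of them. On the log2 scale the difference was 0.38 (SE 0.10, limma adjusted p = 0.0190, n = 5 each), and without wild-type tumour 2 the adjusted p was 0.0545. Pdgfrb stood at 2997, 3143, 3204, 2934 and 3564 in knockout tumours, against 4184, 4294, 3174, 3691 and 3894 in wild-type tumours. Wild-type tumour 3 lay among the knockout tumours and the other 4 lay above them. For Pdgfrb the log2 difference was -0.28 (SE 0.08, limma adjusted p = 0.0212, n = 5 each). This call was lost without knockout tumour 4 (limma adjusted p = 0.0588), without wild-type tumour 1 (0.0564) and without wild-type tumour 2 (0.0606). It was also lost without the pair of tumours highest in adipocyte genes (0.0639) or in keratinocyte genes (0.109).

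Other tissues differed between these tumours too. The adipocyte list had 2 of 5 tested estimates above 0 and a median log2 difference of -1.49, and summed to 63.6 to 155 RPM in knockout and 70.1 to 122 RPM in wild-type tumours. Wild-type tumour 1, the one as high in Pdgfra as the knockout tumours, had 10.7 RPM of keratinocyte genes, against 0.387 to 0.838 RPM in the knockout tumours and 0.235 to 0.491 RPM in the other wild-type tumours. It also had the most skeletal muscle RNA, at 27.1 RPM, followed by knockout tumour 5 at 22.97 RPM. No gene of these 3 lists passed. Without the pair highest in adipocyte, skeletal muscle or keratinocyte genes the log2 difference of Pdgfra was 0.43, 0.43 and 0.54, and it passed each time in limma.

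The 2 receptors thus moved in opposite directions in these tumours, and their ratio separated the groups. Pdgfra over Pdgfrb in RPM was 1.09, 0.995, 0.992, 1.14 and 1.03 in knockout tumours of Rag1-/- hosts, against 0.773, 0.4999, 0.642, 0.728 and 0.718 in wild-type tumours. At day 4 it was 0.773, 0.896, 1.02, 1.14 and 0.722 in knockout tumours, against 1.62, 1.21, 1.22 and 1.49 in wild-type tumours. The groups did not overlap in either host, with knockout tumours above wild-type tumours in Rag1-/- hosts and below them at day 4. In culture the ratio was 1.33 and 1.26 in knockout and 1.86, 0.816 and 0.784 in wild-type cells. It ranged from 0.835 to 1.19 with antibody and from 0.884 to 1.22 with IgG at day 6, with groups that overlapped. The ratio was noticed in the values and was not tested. Single genes had groups that did not overlap in 15% of cases in Rag1-/- hosts and in 5.76% at day 4. The share of gene pairs whose ratio separates the groups was not counted.

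**Figure D3:**
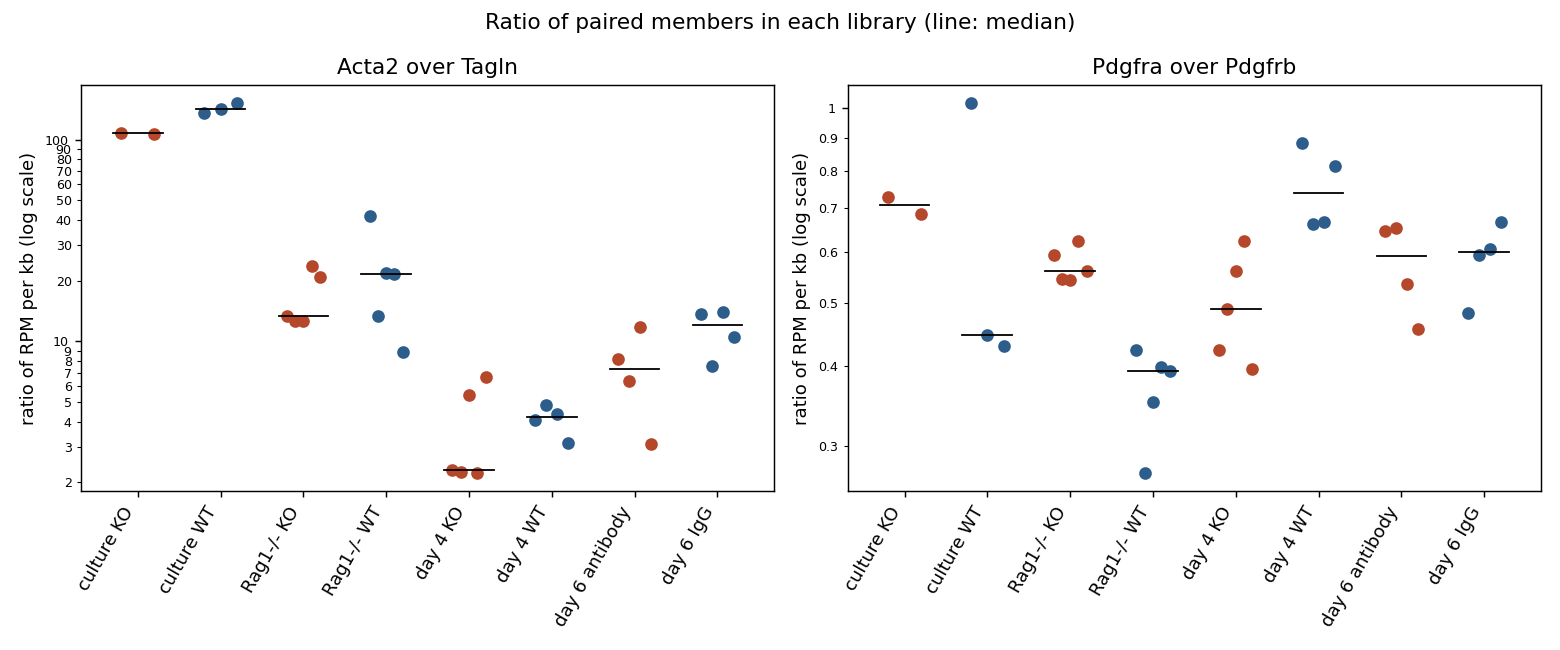
Ratio of Acta2 to Tagln (left) and of Pdgfra to Pdgfrb (right) in every library, per kilobase of exons and on log axes, with a line at the median. Red points are knockout or antibody and blue points are wild-type or IgG libraries. The Acta2 to Tagln ratio is above 100 in culture and below 10 at day 4. The receptor ratio, picked after the values were seen, separates knockout from wild-type tumours in opposite directions in the 2 hosts.

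Acta2 stood at 896, 1102, 1409.9, 931 and 1055 in knockout tumours of Rag1-/- hosts, against 1462, 1504, 1541, 1723 and 1309 in wild-type tumours. Knockout tumour 3 alone reached into the wild-type range. Acta2 had a log2 difference of -0.50 (SE 0.11, 95% interval -0.73 to -0.27, limma adjusted p = 0.00541, n = 5 each), which passed with each tumour left out in turn, at adjusted p-values of 0.000255 to 0.0178. Acta2 was thus lower in knockout tumours of Rag1-/- hosts, and in culture its estimate pointed the same way. Tagln, the other contractile gene, stood at 61.0, 79.0, 101, 35.6 and 45.9 in knockout tumours, against 31.5, 102, 63.8, 72.6 and 134 in wild-type tumours. Its groups overlapped over most of their range, with a log2 difference of -0.26 (SE 0.35, 95% interval -1.01 to 0.49, limma adjusted p = 0.629, n = 5 each).

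The 2 contractile genes were also far from a fixed ratio. Acta2 over Tagln in RPM was 118 and 119.6 in knockout and 151 to 167 in wild-type cultures. In Rag1-/- hosts it was 13.9 to 26.2 in knockout and 9.77 to 46.4 in wild-type tumours, and at day 4 it was 2.47 to 7.39 in knockout and 3.45 to 5.34 in wild-type tumours. At day 6 it was 3.41 to 13.0 with antibody and 8.33 to 15.5 with IgG. Acta2 RNA exceeded Tagln RNA in every library, and the excess was largest in cultured cells. Acta2 has close relatives, Acta1 and Actg2 among them, and how the counting treated reads shared between them is not given in the sources used here. Tagln overlaps Pcsk7 on the opposite strand, Pi16 and Pdgfra overlap antisense models, and whether counting used the strand is likewise not given.

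The remaining 7 members did not pass in Rag1-/- hosts, and their groups overlapped. Thy1 stood at 239, 488, 475, 245 and 399 in knockout and 582, 568, 368, 372 and 504 in wild-type tumours, a log2 difference of -0.41 (SE 0.21, limma adjusted p = 0.176, n = 5 each). The T cell list of 8 genes, without Thy1, summed to 9.81 to 12.3 RPM in knockout and 8.60 to 13.3 RPM in wild-type tumours. Only Cd4 and Lck of that list passed the filter, with Cd4 at 148 ± 22.7 in knockout and 136 ± 29.9 in wild-type tumours and Lck at 65.1 ± 18.0 in knockout and 70.1 ± 13.9 in wild-type tumours (SD, n = 5 each). Of its defining markers, Cd3e, a chain of the T cell receptor complex, had 0 reads in 9 of the 10 libraries and 1 read in the other, a knockout tumour. The part of these genes' cells in Thy1 was not tested. Cxcl12 averaged 101 ± 67.4 in knockout and 92.5 ± 25.2 in wild-type tumours (SD, n = 5 each), a log2 difference of -0.07 (SE 0.34, 95% interval -0.81 to 0.67). Mean and log2 difference point to opposite sides, and knockout tumour 2 stood at 211, the next highest knockout tumour being at 115. Fap, Pdpn, Pi16 and Clec3b had log2 differences between -0.30 and -0.17 with standard errors of 0.27 to 0.65. Fap was low, at 10.6 to 28.5 in knockout and 14.8 to 26.0 in wild-type tumours.

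At day 4 none of the 10 members passed, where 5 of 14105 genes (0.0354%) did. In limma 2 members had an unadjusted p under 0.05, as 15% of genes did. edgeR passed no member and 0.0284% of genes, DESeq2 passed Acta2 and Tagln and 4.88% of genes, and the authors' deposited table has 4.72% of its genes under 0.05. The estimate was above 0 for 9 of the 10 members, Pdgfra being the exception, and the median log2 difference was 0.84 against 0.00 over all genes. No member had groups that did not overlap, where 5.76% of genes did.

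Acta2 stood at 8344, 7479, 4860.5, 7825 and 10279 in knockout tumours at day 4, against 3927, 4630.2, 5611 and 3264 in wild-type tumours. Only knockout tumour 3 and wild-type tumour 3 crossed. The log2 difference was 0.82 (SE 0.22, 95% interval 0.33 to 1.31, limma adjusted p = 0.166, n = 5 and 4). The authors' deposited table gives an adjusted p of 0.0151, and DESeq2 on the recovered reads gave 0.0116. Tagln stood at 3298, 3024, 809, 3169.6 and 1392 in knockout tumours, against 872, 867, 1170.2 and 945 in wild-type tumours. Knockout tumours 1, 2 and 4 stood above the rest, while tumour 3 lay below every wild-type tumour. The log2 difference was 1.09 (SE 0.40, 95% interval 0.21 to 1.98, limma adjusted p = 0.258, n = 5 and 4), the authors' deposited table gives an adjusted p of 0.0190, and DESeq2 gave 0.0178.

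Cxcl12 showed the same division among knockout tumours. It stood at 4488, 3679.7, 1052, 4806 and 916 in knockout tumours, against 619, 1148, 1342 and 2289 in wild-type tumours. Knockout tumours 1, 2 and 4 were above all wild-type tumours and tumours 3 and 5 were within their range. Its log2 difference was 0.97 (SE 0.58, 95% interval -0.31 to 2.25, limma adjusted p = 0.455, n = 5 and 4). Thy1 divided likewise, at 4064, 3577, 1395, 3764 and 999.6 in knockout tumours, against 2630.3, 1362, 1087 and 755 in wild-type tumours, a log2 difference of 0.86 (SE 0.49, limma adjusted p = 0.435, n = 5 and 4). Tumours 1, 2 and 4 thus carried the high values of Tagln, Cxcl12 and Thy1 together. Fap stood at 279.5, 409, 66.6, 381 and 119 in knockout tumours, against 281, 43.3, 106 and 79.8 in wild-type tumours, and wild-type tumour 1 was as high as knockout tumour 1.

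**Figure D4:**
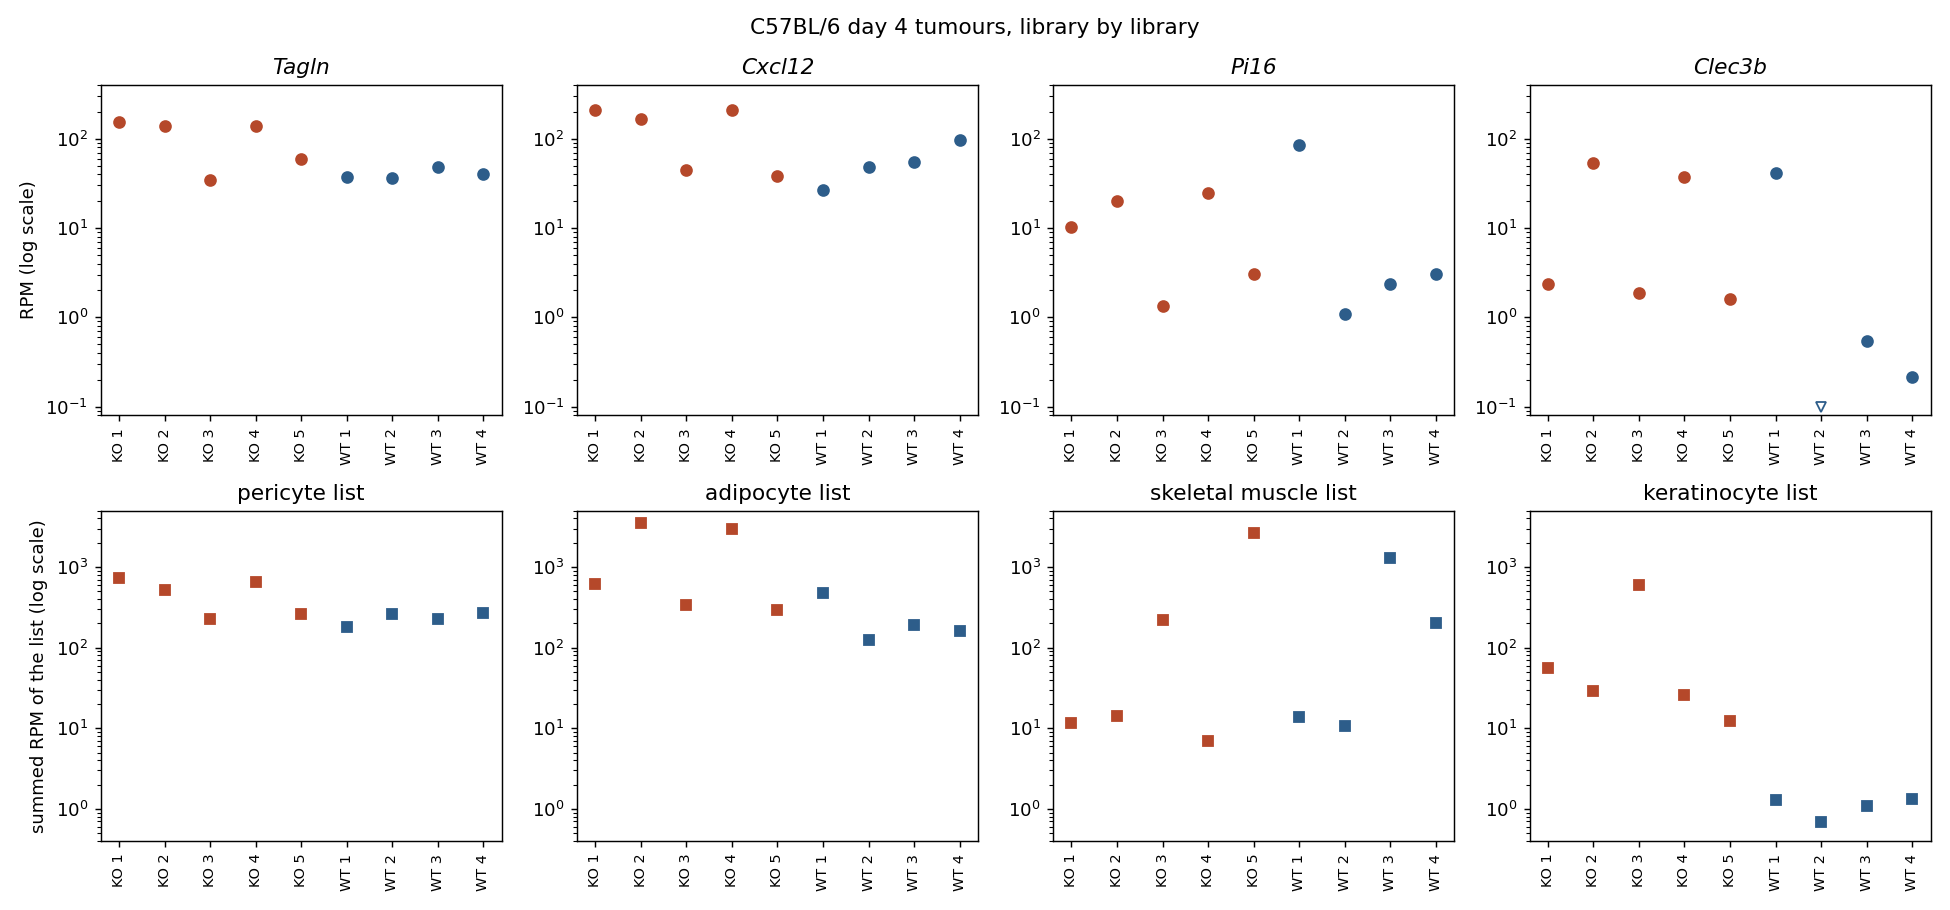
The 9 day 4 tumours one by one. The upper row gives Tagln, Cxcl12, Pi16 and Clec3b in RPM and the lower row the summed RPM of the pericyte, adipocyte, skeletal muscle and keratinocyte lists, all on log axes, with knockout tumours in red and wild-type tumours in blue. The open triangle is wild-type tumour 2, with 0 reads of Clec3b. Tagln and Cxcl12 are highest in knockout tumours 1, 2 and 4, and Pi16 is highest in wild-type tumour 1. The summed keratinocyte list is above all wild-type tumours in every knockout tumour, which not every gene of the list shows.

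Pdgfra and Pdpn did not share this division. Pdgfra stood at 3056, 2069, 2078, 2994 and 1635 in knockout tumours, against 2685, 3041, 2590.2 and 2837 in wild-type tumours, a log2 difference of -0.28 (SE 0.18, limma adjusted p = 0.501, n = 5 and 4). Pdpn stood at 2144, 1114, 854, 1598 and 1128 in knockout tumours, against 1537, 1001, 786 and 1609 in wild-type tumours, a log2 difference of 0.14 (SE 0.29, 95% interval -0.52 to 0.79). Pdgfrb was highest in knockout tumour 1, at 3953, and otherwise stood at 2030.5 to 2623 in knockout and 1658 to 2505 in wild-type tumours. Its log2 difference was 0.34 (SE 0.20, limma adjusted p = 0.444, n = 5 and 4).

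The universal genes varied most of all. Pi16 stood at 222, 438, 31.6, 573 and 73.3 in knockout tumours at day 4, against 1978, 25.8, 56.5 and 70.9 in wild-type tumours. Clec3b stood at 50.5, 1173, 44.0, 846 and 37.8 in knockout tumours, against 973, 0, 13.2 and 4.99 in wild-type tumours. Wild-type tumour 1 stood apart from the other 3 wild-type tumours in both genes, and knockout tumours 2 and 4 stood above the other knockout tumours in both. The count of 0 for Clec3b in wild-type tumour 2 allows up to 0.129 RPM.

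The group mean and the log2 difference of Pi16 disagree in sign as a result. Its mean was 268 ± 234 in knockout and 533 ± 963 in wild-type tumours (SD, n = 5 and 4), while its log2 difference was 0.47 (SE 1.25, 95% interval -2.31 to 3.26, limma adjusted p = 0.885). On the recovered reads edgeR and DESeq2 each gave -0.99. For Clec3b the log2 difference was 3.19 with a standard error of 1.86 and an interval of -0.95 to 7.33 (limma adjusted p = 0.448, n = 5 and 4). No direction can be read for either gene at this spread.

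Other tissues moved with these values at day 4. The adipocyte list of 7 genes summed to 615, 3495, 337, 2985 and 292 RPM in knockout tumours, against 472, 125, 191 and 159 RPM in wild-type tumours. Knockout tumours 2 and 4, and wild-type tumour 1 among the wild-type tumours, were thus highest both in these genes and in Pi16 and Clec3b. All 7 adipocyte genes had estimates above 0, with a median log2 difference of 3.62, and none passed. The keratinocyte list of 6 genes summed to 12.3 to 595 RPM in knockout and 0.688 to 1.32 RPM in wild-type tumours, highest in knockout tumour 3. Krt14, a basal keratin, stood at 10.8 RPM or more in every knockout tumour, against at most 0.645 RPM in the wild-type tumours. Krt5, of the same list, stood at 0.140 to 264 RPM in knockout and 0 to 0.129 RPM in wild-type tumours. Its lowest knockout tumour was thus near the top of the wild-type range. The skeletal muscle list of 8 genes summed to 6.99 to 2626 RPM in knockout and 10.6 to 1309.9 RPM in wild-type tumours, and was highest in knockout tumour 5 and wild-type tumour 3. The part of these tissues in the values above was not tested, and fits without the libraries highest in each list follow.

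Without knockout tumours 2 and 4, highest in adipocyte genes, the day 4 log2 difference was 0.81 for Acta2, 0.70 for Tagln, 0.42 for Cxcl12 and -0.58 for Pi16. Without knockout tumour 5 and wild-type tumour 3, highest in muscle genes, it was 0.84 for Acta2, 1.33 for Tagln and 1.36 for Cxcl12. Without knockout tumours 3 and 1, highest in keratinocyte genes, it was 0.98 for Acta2, 1.31 for Tagln and 1.06 for Cxcl12. Acta2 kept its size in each of these fits, and none of them brought it past the threshold. The fits do not test the part of these tissues, because RNA of the tissues remains in the libraries kept. Without knockout tumours 3 and 1, the other knockout tumours still had 12.3 to 28.8 RPM of keratinocyte genes. Wild-type tumours had 0.688 to 1.32 RPM. Knockout tumours 2 and 4 were also among those highest in Tagln and Cxcl12. The ribosomal transcript Rn45s took 0.329 to 4.95% of reads in knockout and 0.273 to 1.05% in wild-type tumours, highest in knockout tumour 3.

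At day 6 none of the 10 members passed, where 0 of 14155 genes did (0%), and edgeR passed 0 genes and DESeq2 166 (1.17%), no member among them. In limma 1218 genes (8.6%) had an unadjusted p under 0.05, and none of the 10 members was among them. The median log2 difference of the members was -0.25 against -0.01 over all genes, with 7 below 0 and 3 above. No member had groups that did not overlap, where 3.9% of genes did.

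Acta2 stood at 5924, 4587, 4332 and 4763 with the antibody, against 7846, 6135, 6022 and 3888 with IgG. The groups crossed, and the log2 difference was -0.25 (SE 0.20, 95% interval -0.71 to 0.21, limma adjusted p = 0.604, n = 4 each). Without IgG tumours 1 and 2, highest in skeletal muscle genes, it was 0.01, and the muscle list summed to 5.80 to 223 RPM with the antibody and 140.0 to 6513 RPM with IgG. Tagln stood at 654, 652, 333 and 1398 with the antibody, against 519, 736, 388 and 336 with IgG, a log2 difference of 0.50 (SE 0.41, limma adjusted p = 0.608, n = 4 each). Antibody tumour 4 carried the highest value, and without it and antibody tumour 2, the pair highest in adipocyte genes, the difference was -0.02. The 2 contractile genes thus had estimates on either side of 0, neither beyond the spread.

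Cxcl12 stood at 261, 336, 523 and 689 with the antibody, against 234, 506, 265 and 708 with IgG, a log2 difference of 0.13 (SE 0.41, 95% interval -0.80 to 1.06, limma adjusted p = 0.912, n = 4 each). Pi16 stood at 126, 402, 129 and 145 with the antibody, against 152, 498, 97.1 and 392 with IgG. Clec3b stood at 71.5, 283, 88.9 and 163 with the antibody, against 27.9, 364, 85.3 and 246 with IgG. Tumour 2 was the highest of its group in both universal genes, under the antibody and under IgG. Their log2 differences were -0.40 (SE 0.57) for Pi16 and 0.11 (SE 0.77) for Clec3b, and neither passed.

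Other tissues varied among the day 6 tumours as well, with groups that overlapped in the sums of the adipocyte, keratinocyte and muscle lists. The adipocyte list summed to 179 to 1196 RPM with the antibody and 242 to 555 RPM with IgG. The keratinocyte list summed to 0.931 to 184 RPM with the antibody and 0.343 to 0.962 RPM with IgG. All 7 adipocyte genes had estimates above 0, with a median log2 difference of 3.48, and all 8 skeletal muscle genes had estimates below 0, with a median of -4.72. All 5 keratinocyte genes tested had estimates above 0, with a median of 3.53, and none of these genes passed. Their part in the members' values was not tested, and the fits without the highest libraries do not test it. The activated matrix list, which holds Fap and Pdpn among others, had 1 of 11 estimates above 0 and a median of -0.56.

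The receptors and Fap had estimates below 0 at day 6. Pdgfra stood at 4824, 3349, 4309 and 2196 with the antibody, against 4079.9, 3480.0, 5579 and 4377 with IgG, a log2 difference of -0.30 (SE 0.25, limma adjusted p = 0.612, n = 4 each). Pdgfrb had a log2 difference of -0.25 (SE 0.21) and Fap of -0.59 (SE 0.47). Without antibody tumours 2 and 4 the estimates of Pdgfra and Pdgfrb were 0.08 and 0.07. Pdpn stood at 546, 263, 339.8 and 230.3 with the antibody, against 371, 538, 328 and 479 with IgG, a log2 difference of -0.37 (SE 0.28).

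Thy1 at day 6 ran with T cell RNA. It stood at 513, 1582, 2352 and 4548 with the antibody, against 839.7, 2547, 1928 and 2412 with IgG, a log2 difference of -0.05 (SE 0.61, limma adjusted p = 0.979, n = 4 each). The T cell list summed to 26.6, 58.7, 108 and 419 RPM with the antibody, against 21.7, 178, 147 and 132 RPM with IgG. The tumour with most Thy1 was also the one with most T cell RNA. Over the 27 tumour libraries, after the group means were taken out, Thy1 and the mean of that list correlated at r = 0.90, with 0.65 within Rag1-/- hosts, 0.93 within day 4 and 0.95 within day 6. In the same order the list correlated at 0.68, 0.92 and 0.38 with Fap and at 0.21, 0.89 and 0.16 with Pi16. With Clec3b it was 0.20, 0.81 and 0.62, and with Cxcl12 it was 0.47, 0.46 and 0.79. A likeness to this list was thus not particular to Thy1 in Rag1-/- hosts, at day 4 or at day 6. These libraries share their depth and tissue makeup for all genes, here and in the correlations below.

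The knockout effects in the 2 hosts were set against each other because the design moves tumours of both genotypes from Rag1-/- to C57BL/6 mice. Of the 10 members only Acta2 passed, where 4.68% of 11247 genes did and 0.862% passed in its direction. Its log2 difference was 0.82 at day 4 and -0.50 in Rag1-/- hosts, and the first minus the second was 1.32 (SE 0.24, 95% interval 0.81 to 1.82, limma-based adjusted p = 0.00218). This passed with each of the 19 libraries left out in turn, at adjusted p-values of 0.000195 to 0.0104. It also passed without the 2 libraries of each table highest in adipocyte genes (1.36, adjusted p = 0.0228), in skeletal muscle genes (1.34, 0.00555) and in keratinocyte genes (1.56, 0.00112). Host, time and transplantation differ together between the sets and cannot be told apart.

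The other differences between hosts did not pass. That of Tagln was 1.36 (SE 0.53, 95% interval 0.27 to 2.44, limma-based adjusted p = 0.148), that of Thy1 was 1.27 (SE 0.53, adjusted p = 0.177) and that of Cxcl12 was 1.04 (SE 0.67, adjusted p = 0.393). Pdgfra had -0.65 (SE 0.21, adjusted p = 0.0727) and Pdgfrb 0.61 (SE 0.21, adjusted p = 0.0946), on opposite sides of 0. Pdgfra passed without Rag1-/- wild-type tumour 1, day 4 knockout tumour 1 or day 4 knockout tumour 4, with adjusted p down to 0.0287. Tagln passed without day 4 knockout tumour 3 (0.0240) and Clec3b without day 4 wild-type tumour 1 (0.0411). Pdgfra and Tagln also passed, at 0.0224 and 0.0295, without the pairs highest in keratinocyte genes. Over all 10 members 9 estimates were above 0, with a median of 1.16 against -0.01 over all genes.

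**Figure D5:**
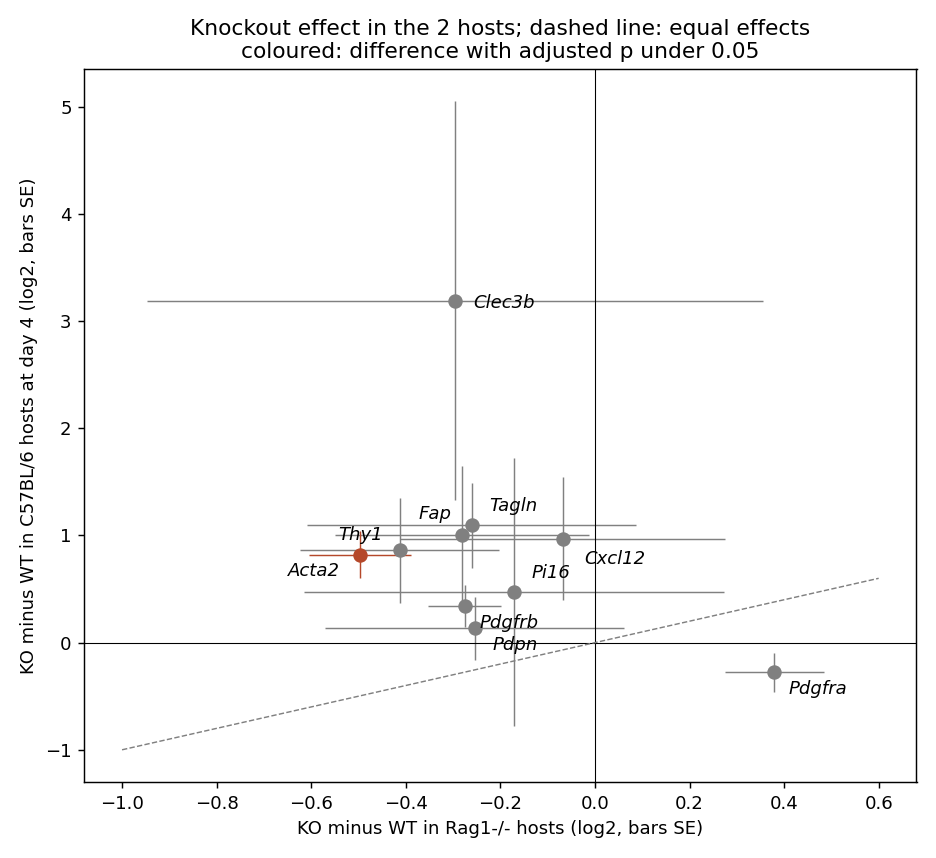
The knockout minus wild-type log2 difference of each gene at day 4 in C57BL/6 hosts (y axis) against that in Rag1-/- hosts (x axis), with standard errors as bars and a dashed line where both would be equal. Acta2, in red, is the one gene whose difference between hosts passed the adjusted p threshold, and Pdgfra lies alone in the lower right.

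The 3 classes were next compared within each tumour, as the mean log2(RPM + 0.1) of Acta2 and Tagln, that of Pi16 and Clec3b, and that of Cxcl12. The contractile mean exceeded the universal mean in every library, by 0.42 to 7.93 in tumours. In culture, without stroma, it did so by 5.79 to 7.13 in knockout and 5.85 to 7.27 in wild-type cells, which express Acta2 themselves. The excess in tumours can thus hold RNA of E0771 cells as well as of stroma. At day 4 the excess was 5.59, 2.73, 5.64, 2.83 and 6.10 in knockout tumours, against 0.42, 7.93, 6.40 and 6.25 in wild-type tumours. Knockout tumours 2 and 4 and wild-type tumour 1, the tumours rich in Pi16 and Clec3b, had the smallest excess. In Rag1-/- hosts it was 2.34 to 4.54 in knockout and 3.12 to 4.79 in wild-type tumours, and at day 6 it was 2.35 to 4.33 with antibody and 1.87 to 4.87 with IgG. In RPM, which leaves exon length out, Cxcl12 stood below the contractile mean in all tumours but day 4 wild-type tumour 4. Cxcl12 has 8176 exon bases, against 2196 for Acta2 and 1988 for Tagln. Per kilobase of exons it stood at 11.98 RPM in that tumour, below Acta2 at 63.6 and Tagln at 20.3. In RPM Cxcl12 was closest to the contractile mean at day 4, by -2.04 to -0.05 in knockout and -1.58 to 0.38 in wild-type tumours. The size of these distances depends on exon length.

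Within groups some members ran together, and which ones did differed in part between the sets. Pi16 and Clec3b correlated at r = 0.91 over the 27 tumour libraries (0.89, 0.93 and 0.82 within Rag1-/- hosts, day 4 and day 6). Fap went with them, at 0.84 with Pi16 and 0.76 with Clec3b, and Pdgfra went with Pdgfrb at 0.72. Acta2 and Tagln correlated at 0.38 (0.29, 0.47 and 0.37 in the same order). Tagln and Cxcl12 correlated at 0.59, with 0.66, 0.83 and 0.12, so their likeness was seen in Rag1-/- hosts and at day 4 and not at day 6. Against the marker lists, each without the members, Pi16 followed the universal list at 0.96 and the adipocyte list at 0.75, and Clec3b followed them at 0.86 and 0.81. Cxcl12 followed the pericyte list at 0.82, the rest of the inflammatory list at 0.74 and the blood endothelial list at 0.73, the last at 0.11 within Rag1-/- hosts. With the universal list Cxcl12 correlated at 0.45, with 0.93 within Rag1-/- hosts, 0.24 within day 4 and 0.74 within day 6. Tagln followed the pericyte list at 0.76 and the inflammatory list at 0.72. Acta2 ran against the keratinocyte list, at -0.50 over all tumours, with -0.16 within Rag1-/- hosts, -0.82 within day 4 and -0.41 within day 6. Tagln ran against it too, at -0.48, with -0.65, -0.39 and -0.48 in the same order. Acta2 followed the rest of the contractile list at 0.52, with -0.16 within Rag1-/- hosts, 0.72 within day 4 and 0.43 within day 6.

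The genes most like a few members over the same libraries were taken among 9502 genes. For Cxcl12 they were Rarres2 (the chemoattractant chemerin, r = 0.86), Col15a1 (a basement membrane collagen, 0.85), S1pr3 (0.82), Epas1 (the hypoxia-inducible factor HIF-2α, 0.81) and Igfbp7 (0.79). For Clec3b they were Eln (elastin, 0.89), Htra3 (0.85), Il18 (0.83), Chpt1 (0.81) and Ifi27l2a (0.81). For Pdgfra they were Dab2ip (0.82), Kitl (stem cell factor, 0.81), Zcchc24 (0.81), Sall2 (0.81) and Spred1 (0.80). For Acta2 they were Gyg, Jmjd8, Isg20, Tgfb3 and Fuca2, at 0.66 to 0.68, lower than for the other 3. Not all held within each set. Within Rag1-/- hosts Htra3 was at 0.04 with Clec3b, Tgfb3 at 0.10 with Acta2, and Zcchc24 at 0.21 and Spred1 at 0.24 with Pdgfra. Eln was at 0.42 with Clec3b within day 6. Others did hold, such as Rarres2 with Cxcl12, at 0.93 within Rag1-/- hosts, 0.88 within day 4 and 0.75 within day 6.

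The wider gene groups gave few calls outside Rag1-/- hosts. In culture, at day 4 and at day 6 no gene of the 12 lists passed. In Rag1-/- hosts the contractile list of 16 had 13 genes tested, with 1 higher and 1 lower in knockout tumours, where 22.7% of all genes passed in either direction. Actg2, the gamma smooth muscle actin, rose by 1.02 (SE 0.20, limma adjusted p = 0.00332) and Acta2 fell. Actg2 averaged 129 ± 40.9 in knockout and 62.3 ± 14.3 in wild-type tumours (SD, n = 5 each). Myh11, the smooth muscle myosin heavy chain, averaged 29.8 ± 9.33 in knockout and 34.2 ± 11.0 in wild-type tumours, and Srf, serum response factor, 3082 ± 135 in knockout and 3397 ± 302 in wild-type tumours, and neither passed. The 2 smooth muscle actin genes therefore changed in opposite directions.

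The inflammatory list had 14 of 16 genes tested in Rag1-/- hosts, with 3 higher and 3 lower in knockout tumours, where 11.3% and 11.4% of all genes were. Besides Pdgfra, Lif (leukaemia inhibitory factor) rose by 1.66 (SE 0.23, limma adjusted p = 0.000343) and the cytokine Il11 by 1.52 (SE 0.28, adjusted p = 0.00184). The chemokine Ccl7 fell by 0.47 and Ccl2 by 0.40, and the surface antigen Ly6c1 fell by 0.93 (SE 0.08, limma adjusted p = 1.38e-05). Their median log2 difference was 0.02, so the list had no common direction. Lif was also expressed in culture, at 1029 ± 259 in knockout and 921 ± 592 in wild-type cells (SD, n = 2 and 3). The whole list summed to 1342 to 1528 RPM in knockout and 1467 to 2025 RPM in wild-type cultures. In Rag1-/- hosts it summed to 500 to 724 RPM in knockout and 631 to 784 RPM in wild-type tumours. Which cells the RNA of these genes came from was not tested.

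The universal list had 13 of 16 genes tested in Rag1-/- hosts, with 2 higher and 3 lower in knockout tumours, where 22.7% of all genes passed in either direction. Its median log2 difference was -0.33. Dpt (dermatopontin) fell by 1.10 (SE 0.14, limma adjusted p = 0.000128), to 2403 ± 355 in knockout tumours, against 5212 ± 1063 in wild-type tumours (SD, n = 5 each). Ly6a (Sca-1) fell by 0.91 (SE 0.10, adjusted p = 5.0e-05) and the peptidase Dpp4 by 0.76. Anxa3 rose by 0.29 and Pcolce2, an enhancer of procollagen processing, by 0.73. Ly6a was also expressed in culture, at 212 ± 84.2 in knockout and 675 ± 156 in wild-type cells (SD, n = 2 and 3). Pi16 and Clec3b themselves were at log2 differences of -0.17 and -0.30 there, with standard errors of 0.44 and 0.65.

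Of the PDGF ligands and CXCL12 receptors, 5 of 6 were tested in Rag1-/- hosts and 1 passed, where 22.7% of all genes did, a share in the same range. The gene that passed was Ackr3, a receptor that takes up CXCL12. It rose by 0.70 (SE 0.13, limma adjusted p = 0.00238), to 3040.4 ± 421 in knockout tumours, against 1892 ± 451 in wild-type tumours (SD, n = 5 each). At day 4 it stood at 4857 ± 971 in knockout and 7139 ± 661 in wild-type tumours (SD, n = 5 and 4), a log2 difference of -0.57 (limma adjusted p = 0.165). Cxcr4 had log2 differences of 0.09 in Rag1-/- hosts and 0.09 at day 4. Pdgfa, a ligand of PDGFRA, averaged 1446 ± 39.4 in knockout and 1318 ± 81.0 in wild-type tumours of Rag1-/- hosts (SD, n = 5 each, limma adjusted p = 0.0688).

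At day 4, estimates of the vessel-associated lists lay above 0 without a call. The pericyte list had 9 of 10 estimates above 0 and a median log2 difference of 1.14, against 0.00 over all genes. Rgs5, a pericyte regulator of G protein signalling, averaged 1907 ± 1398 in knockout and 394 ± 228 in wild-type tumours, and Cspg4, the NG2 proteoglycan, averaged 375 ± 108 in knockout and 169 ± 58.1 in wild-type tumours (SD, n = 5 and 4). The pericyte list summed to 729, 523, 225, 652 and 261 RPM in knockout tumours, against 182, 259, 225 and 269 RPM in wild-type tumours. Knockout tumours 1, 2 and 4, those with most Tagln and Cxcl12, were the 3 highest. All 7 blood endothelial genes had estimates above 0, with a median of 1.19, and the contractile list had 10 of 15 above 0 with a median of 0.66. Myh11 averaged 333 ± 243 in knockout and 67.3 ± 32.9 in wild-type tumours, and Smtn, smoothelin, 7995 ± 1747 in knockout and 12678 ± 2031 in wild-type tumours (SD, n = 5 and 4). The activated matrix list had 10 of 11 above 0 with a median of 0.51, and the universal list 14 of 16 with a median of 0.53.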

How the data were processed

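RNA-seq libraries of E0771 cells and tumours, 32 in 8 groups, were grouped by their titles and characteristics. Per the labels' protocols, RNA was extracted with Trizol for stranded TruSeq mRNA libraries. CASAVA, TopHat, DESeq2 and the build mm10 stand in the submitters' processing notes, without versions or roles. How reads were counted, and whether by strand, is not given in the sources used here. The authors deposited 4 tables of normalized read counts, a signal that is a whole multiple of 1 step per library. Division by it returned whole reads, to within 0.01, for all values, and from these came depth and RPM. On these recovered reads edgeR called 25 genes in culture, 2900 in Rag1-/- hosts, 4 at day 4 and 0 at day 6. Where a p-value of the authors is quoted, it is from the deposited tables. Another 18 columns were not used. Tables were normalized separately, so tests stayed within a table.

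Values were taken as log2(normalized count + 1), and limma 3.58.1 (R 4.3.3) was fitted with a trend to the 2 groups of a table, without covariates, for genes with a mean of 10 or more. These fold changes understate weakly expressed genes. Effects in the 2 hosts were compared from limma's estimates and standard errors. All p-values are two-sided. The tests were tried on simulated data with known changes. Alternatives were edgeR 4.0.16 and DESeq2 1.42.0, other pseudocounts, filters and scalings, the replicate number as a block, and left-out libraries. Leaving out the 2 libraries with most RNA of a marker list was chosen after seeing the data. Intervals and limits cover counting error only where they rest on reads.

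The members and the 12 gene lists were chosen with earlier results of these data known. The naming rule took all members, Ddr1, up to 4 list genes per list and comparison past the threshold, and the 5 genes most alike to Acta2, Cxcl12, Clec3b and Pdgfra. Other list genes, and the marker genes Cd3e, Krt5, Krt14 and Rn45s, were chosen after their values were seen. Correlations used log2 values minus their group mean. Positions and exon lengths are from GENCODE for GRCm38, the build also called mm10, and promoter sequences from RefSeq for GRCm38.p6. Figures were drawn with matplotlib 3.10.9.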

Additional observations from a re-analysis of the deposited data

Results flagged for a closer look

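Of 60 member and tumour group pairs with 4 or 5 libraries, 4 held a library far from the rest of its group, and chance alone flags about 1 in 20. Clec3b stood at 35.1 in Rag1-/- knockout tumour 2, the other 4 being at 11.3 or less. Pi16 stood at 1978 and Clec3b at 973 in day 4 wild-type tumour 1, where the other 3 wild-type tumours reached at most 70.9 and 13.2. Pi16 stood at 402 in day 6 antibody tumour 2, the other 3 being at 145 or less. The knockout effect on Acta2 differed between hosts, by 1.32 on the log2 scale for day 4 minus Rag1-/- hosts, as tested above.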

How the results depend on the processing

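DESeq2 called 1055 genes in culture, 689 at day 4 and 166 at day 6, and 1 and 2 members in culture and at day 4. edgeR called 25 in culture. At day 4 no filter gave 9 genes. Leaving out the pair of libraries highest in muscle genes gave 1935 genes in Rag1-/- hosts and 15 at day 4, and leaving out the pair highest in adipocyte genes gave 3 at day 4 and 185 for the difference between hosts. Without the pairs highest in keratinocyte genes 3 members passed for that difference. With each library left out in turn, culture gave 2 to 1655 genes and 0 to 2 members, Rag1-/- hosts gave 1984 to 3093 genes and 1 to 3 members, day 4 gave 3 to 50 genes and 0 to 0 members, day 6 gave 0 to 5 genes and 0 to 0 members, and the difference between hosts gave 265 to 714 genes and 1 to 2 members. The cause of these shifts was not tested.

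Signs that turned were all of members without a call. They were Cxcl12 in Rag1-/- hosts (edgeR 0.11, DESeq2 0.12, without the keratinocyte pair 0.0178) and, at day 4, Pdpn without the muscle pair (-0.0094) and Pi16 (edgeR and DESeq2 -0.99, without the adipocyte pair -0.58). At day 6 without the adipocyte pair they were Pdgfra (0.0794), Pdgfrb (0.0688), Pdpn (0.0323), Tagln (-0.0181), Clec3b (-0.60) and Cxcl12 (-0.0626). Without the muscle pair they were Acta2 (0.0082), Clec3b (-0.15) and Cxcl12 (-0.0392), and without the keratinocyte pair Cxcl12 (-0.38). Thy1 at day 6 turned under upper-quartile scaling (0.0134), edgeR and DESeq2 (0.22 each), and Clec3b under edgeR (-0.29) and DESeq2 (-0.26). Pi16 between hosts turned without the adipocyte pairs (-0.34). Leaving out 1 library turned the sign of members without a call 20 times, over Pi16 (-0.49 to 0.15), Clec3b (-0.54 to 0.10) and Cxcl12 (-0.39 to 0.19) in Rag1-/- hosts, Pdpn (-0.0598 to 0.29) and Pi16 (-0.26 to 1.81) at day 4, Thy1 (-0.52 to 0.53), Clec3b (-0.59 to 0.63) and Cxcl12 (-0.11 to 0.42) at day 6, and Pi16 between hosts (-0.0843 to 1.99).

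Replicate numbers were not taken as pairs. Same-numbered deviations correlated between -0.20 and 0.45 with mixed signs. At day 6 numbers 1 and 4, at 0.45 and 0.35, were each most like their own number in the other group. In Rag1-/- hosts and at day 4 no number was. So few tumours cannot exclude pairing. With the replicate number as a block 2411 genes were called in Rag1-/- hosts, 1 at day 4 and 0 at day 6, and for the difference between hosts 2 members passed, the second being Thy1. The culture libraries carry no shared numbers.

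At this depth members near 0 in culture, at 0 to 11 reads per library, allow no comparison of genotypes.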
